A study of Mus musculus with 4 samples.

Results

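The genes described here are 10 members of the machinery that places or reads methylation of histone H3 lysine 9, out of 32285 genes counted, chosen by symbol as partners or possible substitutes of the methyltransferase SETDB1. They are Atf7ip, Atf7ip2 and Trim28, which encode partners of SETDB1, Setdb2, Suv39h1, Suv39h2, Ehmt1 and Ehmt2, which encode other methyltransferases of the family, and Tasor and Mphosph8, which encode subunits of the HUSH complex. Their RNA was counted in single nuclei of mouse cortex, from Setdb1-CK-cKO animals, in which Setdb1 is conditionally knocked out, and from Wildtype animals. Both genotypes were C57BL/6 animals of 5 months, with 2 animals and 1 library per animal in each genotype. The labels do not explain the CK part of the knockout's name, and which cells carry the deletion was not stated.

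SETDB1 adds methyl groups to lysine 9 of histone H3, a mark of silent chromatin that in mammalian cells keeps transposable elements and some genes unexpressed. ATF7IP binds SETDB1 and keeps it stable in the nucleus, and TRIM28 brings it to sites bound by KRAB zinc finger proteins. The HUSH complex, in which TASOR is the scaffold and MPP8 (from Mphosph8) reads the methyl mark, also recruits SETDB1 to chromatin. SUV39H1 and SUV39H2 trimethylate the same lysine mainly at pericentromeric heterochromatin, and the partners G9a (from Ehmt2) and GLP (from Ehmt1) set lower methylation states at genes. SETDB2 is a close relative of SETDB1.

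The Setdb1-CK-cKO libraries held 11790 and 13902 barcodes and the Wildtype libraries 14493 and 14365, with 38503740 and 38314394 UMIs (unique molecules counted) in Setdb1-CK-cKO and 45605971 and 42780840 in Wildtype. After filters, 52038 nuclei were kept, of which 47307 fell in named classes, and pairs of libraries shared between 48 and 64 barcodes. The labels list Setdb1-CK-cKO replicate 1 as female and replicate 2 as male, and Wildtype replicate 1 as male and replicate 2 as female. Xist, made from the inactive X chromosome, was at 0.961 and 1384 UMIs per 1000000 UMIs of the library (CPM) in Setdb1-CK-cKO replicates 1 and 2 and at 1.80 and 1025 CPM in Wildtype replicates 1 and 2, while the Y-linked gene Uty was at 82.6 and 0.0261 CPM in Setdb1-CK-cKO and at 89.3 and 0.117 CPM in Wildtype. Both Setdb1-CK-cKO libraries thus went against their listed sex, and in both genotypes replicate 1 had the male pattern and replicate 2 the female pattern. Results without each library are given where they change a call.

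Setdb1 itself did not separate the genotypes in excitatory or inhibitory neurons, and its difference passed the test (adjusted p under 0.05) in none of the 8 classes. In excitatory neurons it had 71.2 and 66.9 CPM in Setdb1-CK-cKO and 72.7 and 67.6 CPM in Wildtype, a log2 fold change of -0.02 ± 0.086 (SE), and in inhibitory neurons 67.5 and 66.9 CPM in Setdb1-CK-cKO and 68.3 and 65.8 CPM in Wildtype, a log2 fold change of 0.00. The libraries of both genotypes overlapped in both classes. In astrocytes both Setdb1-CK-cKO libraries were above both Wildtype libraries (46.4 to 47.7 against 31.7 to 44.0 CPM), as for 22.8% of genes tested there. In microglia both were below (63.8 to 90.7 against 94.6 to 99.5 CPM), as for 21.9% of genes. Among 15 neuron subclasses both were above in 4 and below in 2, and none passed. The counts are tags from the 3′ end of transcripts, and where the deleted part of the gene lies was not stated, so the deletion is not checked by these values.

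The member whose RNA rose is Atf7ip, and its promoter is shown with that of Setdb2, the member with the lowest log2 fold change in excitatory and in inhibitory neurons, and that of Setdb1, the targeted gene. Each window runs from 250 bases before to 50 bases after the RefSeq start of the gene in build GRCm38.p6, 5′ to 3′ on the strand of the gene, with CG dinucleotides, the sites of DNA methylation, in capitals.
Atf7ip, chr6:136518601-136518900, plus strand: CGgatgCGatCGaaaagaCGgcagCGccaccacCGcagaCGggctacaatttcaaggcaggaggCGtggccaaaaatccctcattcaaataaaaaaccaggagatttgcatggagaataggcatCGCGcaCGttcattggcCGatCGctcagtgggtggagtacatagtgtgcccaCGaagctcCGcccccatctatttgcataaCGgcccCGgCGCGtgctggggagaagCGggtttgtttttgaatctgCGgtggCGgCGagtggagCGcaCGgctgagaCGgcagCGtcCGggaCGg
Setdb2, chr14:59440831-59441130, minus strand: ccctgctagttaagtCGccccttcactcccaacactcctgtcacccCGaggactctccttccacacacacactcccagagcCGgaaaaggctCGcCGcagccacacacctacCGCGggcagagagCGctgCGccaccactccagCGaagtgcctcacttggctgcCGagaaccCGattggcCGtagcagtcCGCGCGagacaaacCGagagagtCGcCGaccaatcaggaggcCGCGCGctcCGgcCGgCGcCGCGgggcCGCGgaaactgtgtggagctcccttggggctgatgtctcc
Setdb1, chr3:95357153-95357452, minus strand: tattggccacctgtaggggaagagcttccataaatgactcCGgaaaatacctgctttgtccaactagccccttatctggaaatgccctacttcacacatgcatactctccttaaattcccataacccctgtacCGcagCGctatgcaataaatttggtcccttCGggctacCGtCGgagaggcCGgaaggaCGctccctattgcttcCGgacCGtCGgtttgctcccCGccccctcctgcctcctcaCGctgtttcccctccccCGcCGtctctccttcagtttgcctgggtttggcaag
The Atf7ip window holds 29 CG and has 58.7% G and C, the Setdb2 window 29 CG and 66.3%, and the Setdb1 window 15 CG and 55.3%. The RefSeq table gave 12 promoters for the 10 members, since Suv39h1 and Ehmt2 have 2 each, and these held between 15 and 40 CG with a median of 29, against a median of 7 over all 32851 promoters in the table. Searched on both strands, the motif GGGCGG of Sp1 was found in 11 of the 12 member promoters and in 35.7% of all promoters, and CCAAT of NFY in 6 of 12 and in 37.4% of all. The motif AAGATGGC of YY1 was in 2 of 12 (2.75% of all) and the E-box CACGTG in 2 of 12 (7.15% of all), while CCGGAAGT of ETS factors (3.89% of all), the NRF1 motif (0.971% of all) and TATAAA (13.6% of all) were in none of the 12. None of these motifs contains another. The Atf7ip window has 1 match each of the Sp1 and NFY motifs. Such matches describe the letters of the windows, and no measurement of chromatin was analysed here.

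Atf7ip RNA was higher in Setdb1-CK-cKO than in Wildtype in every class of nuclei measured, and the difference passed the test in excitatory neurons, inhibitory neurons and astrocytes. In excitatory neurons Atf7ip had 120.8 and 125.2 CPM in the 2 Setdb1-CK-cKO libraries and 64.0 and 72.3 CPM in the 2 Wildtype libraries, from 3121 and 3212 UMIs in Setdb1-CK-cKO and 1907 and 2092 in Wildtype. Both Setdb1-CK-cKO libraries lay far above both Wildtype libraries, and libraries of 1 genotype lay close together. The means were 123.0 ± 3.16 CPM in Setdb1-CK-cKO and 68.2 ± 5.86 CPM in Wildtype (SD, n = 2 each), and the log2 fold change was 0.85 ± 0.087 (SE), a fold of 1.80, with a 95% interval of 0.65 to 1.05 and an adjusted p of 0.000971 in edgeR's quasi-likelihood test with Benjamini-Hochberg adjustment over 19173 genes. Atf7ip was the only one of the 9 members tested there that rose, and none fell. Of all genes tested in excitatory neurons 4.44% passed in either direction, and Atf7ip ranked 104 of 19173 by p. Without each library in turn the log2 fold change lay between 0.76 and 0.94 and passed each time.

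In inhibitory neurons Atf7ip had 109.3 and 123.7 CPM in Setdb1-CK-cKO and 64.7 and 76.7 CPM in Wildtype. Again both Setdb1-CK-cKO libraries were above both Wildtype libraries, and the log2 fold change of 0.72 ± 0.111 (SE) passed with an adjusted p of 0.000448 (edgeR), where 1.8% of all genes tested passed. It passed without each library in turn as well, at 0.60 to 0.85. In astrocytes Atf7ip had 162.8 and 183.6 CPM in Setdb1-CK-cKO and 99.97 and 104.0 CPM in Wildtype, with no overlap. There the log2 fold change was 0.76 ± 0.155 (SE; adjusted p = 0.0132, edgeR), where 1.47% of all genes passed. The astrocyte call did not hold without Setdb1-CK-cKO replicate 2 (log2 fold change 0.66, adjusted p = 0.145), without Wildtype replicate 1 (0.71, adjusted p = 0.131) or in DESeq2 (0.76, adjusted p = 0.108).

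**Figure D1:**
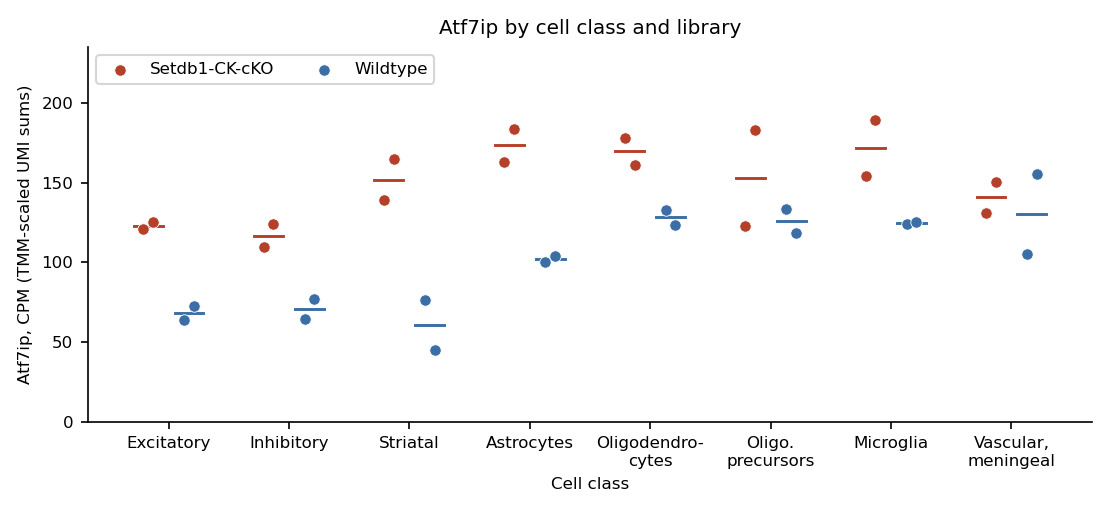
Atf7ip level in CPM (vertical axis, TMM-scaled UMI sums) by cell class, with 1 point per library, Setdb1-CK-cKO left of Wildtype, and a bar at the mean of the 2 libraries. In excitatory neurons the Setdb1-CK-cKO libraries sit at 120.8 and 125.2 CPM and the Wildtype libraries at 64.0 and 72.3, while in vascular and meningeal cells and in oligodendrocyte precursors the genotypes overlap.

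In the other 5 classes the difference was positive but did not pass in the fit on genotype alone. Oligodendrocytes had 178.0 and 161.3 CPM in Setdb1-CK-cKO and 133.0 and 123.3 CPM in Wildtype (log2 fold change 0.41, adjusted p = 0.170, edgeR; 0.93% of genes called). Microglia, the immune cells of the brain, had 154.0 and 189.4 CPM in Setdb1-CK-cKO and 123.9 and 125.5 CPM in Wildtype (0.46, adjusted p = 0.286; 1.22% of genes called). In both classes both Setdb1-CK-cKO libraries lay above both Wildtype libraries. Striatal projection neurons, with 79 to 115 nuclei per library, had 139.0 and 164.7 CPM in Setdb1-CK-cKO and 76.3 and 45.2 CPM in Wildtype (1.31, adjusted p = 0.356; 0% of genes called). That value rests on 40 and 52 UMIs in Setdb1-CK-cKO and 18 and 10 in Wildtype. Without Setdb1-CK-cKO replicate 1 it was 1.41 and passed, in a fit where other genes of this class gained calls too. The genotypes overlapped in oligodendrocyte precursors, with 122.9 and 182.9 CPM in Setdb1-CK-cKO and 133.3 and 118.4 CPM in Wildtype (0.29, adjusted p = 0.808; 0.077% of genes called). They also overlapped in vascular and meningeal cells, with 130.7 and 150.5 CPM in Setdb1-CK-cKO and 105.3 and 155.6 CPM in Wildtype (0.10, adjusted p = 0.965; 0% of genes called). Summed over all nuclei, Atf7ip had 125.2 and 130.9 CPM in Setdb1-CK-cKO and 70.5 and 78.3 CPM in Wildtype (0.78 ± 0.076, adjusted p = 0.00132, edgeR; 3.86% of genes called).

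Whether the effect differed between classes was tested with a genotype by class term beside a term for each library. The effect on Atf7ip in excitatory neurons minus that in oligodendrocytes was 0.48 ± 0.122 (SE) on the log2 scale, with a 95% interval of 0.24 to 0.71 and an adjusted p of 0.0138 (edgeR), where 1.12% of genes passed. This difference did not pass without Setdb1-CK-cKO replicate 1 (0.55, adjusted p = 0.0643), without Setdb1-CK-cKO replicate 2 (0.38, adjusted p = 0.405), without Wildtype replicate 1 (0.33, adjusted p = 0.757) or in nuclei with at least 1000 UMIs (0.42, adjusted p = 0.334). The effect in excitatory neurons minus that in another class did not pass for astrocytes (0.15, 95% interval -0.15 to 0.44, adjusted p = 0.909; 1.02% of genes called) or inhibitory neurons (0.16, -0.03 to 0.36, adjusted p = 0.738; 0.826% called). It was 0.39 against microglia (0.01 to 0.77, adjusted p = 0.784; 0.485% called), 0.57 against oligodendrocyte precursors (0.19 to 0.95, adjusted p = 0.586; 0.172% called) and 0.79 against vascular and meningeal cells (adjusted p = 0.528; 0.124% called). Against striatal projection neurons it was -0.49 (-1.14 to 0.17, adjusted p of 1; 0.134% called). The intervals are those of the unadjusted test, so several leave out 0 although the adjusted p does not pass. No other member passed in any of these 7 comparisons.

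Other measures moved with genotype in the same sums. Ribosomal protein genes took 0.484 to 0.544% of UMIs in Setdb1-CK-cKO and 0.338 to 0.397% in Wildtype excitatory neurons, and mitochondrial genes 0.185 to 0.240% in Setdb1-CK-cKO and 0.102 to 0.174% in Wildtype. In astrocytes ribosomal protein genes took 1.04 to 1.23% in Setdb1-CK-cKO and 0.726 to 0.877% in Wildtype. RNA of excitatory neurons was present in astrocytes, where Slc17a7, their glutamate transporter, had 196 to 293 CPM in Setdb1-CK-cKO and 223 to 308 CPM in Wildtype. Excitatory neurons themselves had 258 to 279 CPM in Setdb1-CK-cKO and 234 to 260 CPM in Wildtype. Oligodendrocytes had 288 to 369 CPM in Setdb1-CK-cKO and 304 to 404 CPM in Wildtype. Microglia had 322 to 392 CPM in Setdb1-CK-cKO and 354 to 443 CPM in Wildtype. Inhibitory neurons were lower, at 114 to 136 CPM in Setdb1-CK-cKO and 114 to 158 CPM in Wildtype. The Atf7ip level of astrocytes lay above that of excitatory neurons in all 4 libraries. The part of these measures in the Atf7ip results was not tested.

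The difference was also seen in the share of nuclei with an Atf7ip UMI. With each excitatory nucleus thinned to 1500 UMIs, 16.6% (exact Clopper-Pearson 95% interval 15.7 to 17.6) and 17.6% (16.7 to 18.5) of nuclei had at least 1 Atf7ip UMI in Setdb1-CK-cKO, and 8.88% (8.21 to 9.58) and 10.4% (9.71 to 11.1) in Wildtype. These intervals cover counting error within 1 library only. The ratio of the mean shares was 1.77, and thinned to 3000 UMIs it was 1.73. Unthinned, 39.1 and 33.96% of nuclei in Setdb1-CK-cKO and 23.2 and 23.6% in Wildtype had a UMI, at median depths of 3958.5 and 3165.5 UMIs in Setdb1-CK-cKO and 4060 and 3596 in Wildtype. The thinning left out 60 and 296 shallower nuclei in Setdb1-CK-cKO and 104 and 119 in Wildtype. Nuclei with 2 thinned UMIs made up 1.16 and 1.64% in Setdb1-CK-cKO and 0.445 and 0.566% in Wildtype, against 1.35 and 1.56% in Setdb1-CK-cKO and 0.396 and 0.549% in Wildtype for a Poisson draw at the same mean. No class lacked Atf7ip and could serve as a background. In inhibitory neurons the thinned shares were 14.7 and 16.6% in Setdb1-CK-cKO and 8.43 and 10.9% in Wildtype, at median depths of 3541.5 and 2755.5 UMIs in Setdb1-CK-cKO and 3356 and 2953 in Wildtype.

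Among the 15 subclasses and numbered clusters of neurons, which divide the class sums and are no independent evidence, the Atf7ip log2 fold change was positive in all 15 and passed in 12 (edgeR, adjusted within each). The neurons of layer 2/3 that project within the telencephalon (L2/3 IT) had 115.2 and 130.6 CPM in Setdb1-CK-cKO and 58.3 and 66.7 CPM in Wildtype, and those of layer 6 (L6 IT) 130.6 and 131.0 CPM in Setdb1-CK-cKO and 54.9 and 72.6 CPM in Wildtype. The genotypes did not overlap in either. Their log2 fold changes were 0.97 ± 0.114 (SE; 1.92% of genes called) and 1.04 ± 0.137 (3.03% called). The highest was in claustrum or layer 6 Car3 neurons, at 1.401 ± 0.219 (0.662% called), with 135.9 and 172.9 CPM in Setdb1-CK-cKO and 59.2 and 56.9 CPM in Wildtype from 111 to 146 nuclei per library. Layer 6b neurons were at 1.04 (1.59% called), cluster 6, led by Ndst4 and Abi3bp, at 1.01 (0.702% called), the interneurons of the Lamp5 or Sncg cluster, which also held Vip markers, at 0.98 (0.525% called), and cluster 15, led by Tshz2 and Tnxb, at 0.88 (1.19% called). Lower values that passed were 0.87 in L5 IT (2.97% called), 0.79 in the L5 neurons that project out of the telencephalon (L5 ET; 2.09% called), 0.73 in the corticothalamic neurons of layer 6 (2.73% called), 0.72 in Sst interneurons (0.928% called) and 0.55 in L4/5 IT (1.45% called). The difference did not pass in Pvalb interneurons, with 93.6 and 102.9 CPM in Setdb1-CK-cKO and 68.1 and 75.1 CPM in Wildtype (0.46, adjusted p = 0.201; 0.462% called), or in the near-projecting neurons of layers 5 and 6, with 124.2 and 134.7 CPM in Setdb1-CK-cKO and 94.2 and 94.1 CPM in Wildtype (0.46, adjusted p = 0.444; 1.17% called). Both still kept the genotypes apart. In cluster 21 they overlapped, at 166.6 and 94.9 CPM in Setdb1-CK-cKO and 104.0 and 101.2 CPM in Wildtype (0.42, adjusted p = 0.579; 1.07% called). Of the 12 calls, 6 were lost when some library was left out, with log2 fold changes that were positive each time. Without Wildtype replicate 1, 7 of the 15 passed, and the calls lost were L4/5 IT (0.43, adjusted p = 0.261), L5 ET (0.67, adjusted p = 0.0773), L6b (0.68, adjusted p = 0.172), Sst (0.59, adjusted p = 0.402) and cluster 6 (1.004, adjusted p = 0.106). Without Setdb1-CK-cKO replicate 2, 9 passed, and L4/5 IT (0.57, adjusted p = 0.0926), Sst (0.63, adjusted p = 0.788) and cluster 15 (0.65, adjusted p = 0.158) were lost. Without Setdb1-CK-cKO replicate 1, Sst was lost at a log2 fold change of 0.80. Calls of other genes in Sst were also lost in the fits without a Setdb1-CK-cKO library, so that loss is not particular to Atf7ip. In DESeq2 7 passed. Whether the effect differed among subclasses was not tested.

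**Figure D2:**
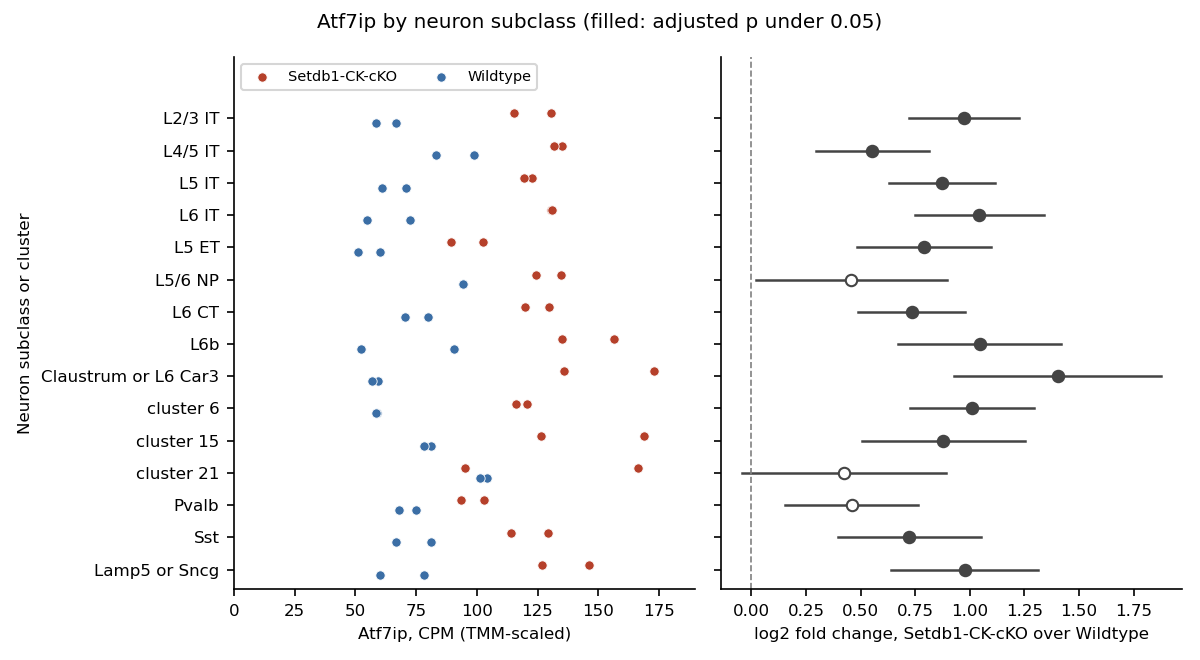
Atf7ip by neuron subclass or cluster, with CPM per library on the left (Setdb1-CK-cKO in red above Wildtype in blue) and on the right the log2 fold change of Setdb1-CK-cKO over Wildtype with its 95% interval, filled where the adjusted p was under 0.05. All 15 points lie right of 0 and 12 are filled, from 0.55 in L4/5 IT to 1.401 in claustrum or L6 Car3 neurons.

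Atf7ip spans chr6:136506167-136610862 on the plus strand in GENCODE vM21 (GRCm38), and its neighbours were read in excitatory neurons. Plbd1, a phospholipase-like gene on the other strand, lies 1208 bases beyond the 3′ end of Atf7ip and had 0.619 and 0.741 CPM in Setdb1-CK-cKO and 0.336 and 0.588 CPM in Wildtype. The Setdb1-CK-cKO libraries were the higher ones, but the log2 fold change of 0.56 did not pass (adjusted p = 0.472, edgeR). The predicted antisense gene Gm26653, on the other side, was at 0.27 and did not pass (adjusted p = 0.703). Gm44140, a noncoding gene on the minus strand that overlaps Atf7ip and spans its RefSeq start, had 3 and 4 UMIs in Setdb1-CK-cKO and 2 and 0 in Wildtype and was not tested. Too few UMIs were also found for Gucy2c (7 and 6 in Setdb1-CK-cKO, 3 and 7 in Wildtype) and E330021D16Rik (0 and 1 in Setdb1-CK-cKO, 5 and 1 in Wildtype), and none for Gm8994. So 0 of the 2 neighbours tested passed, where 4.44% of genes did, and none had an unadjusted p under 0.05.

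The other partners of SETDB1 did not pass in any class. Atf7ip2, a relative of Atf7ip known in mice mainly from the germ line, was barely detected, with 5 and 6 UMIs in Setdb1-CK-cKO and 5 and 9 in Wildtype excitatory neurons. No UMI was found in oligodendrocyte precursors or striatal projection neurons of either genotype, which at 3 counts over the libraries of a genotype allows up to 2.66 CPM in Setdb1-CK-cKO and 2.48 CPM in Wildtype oligodendrocyte precursors. It was below the count filter in the fit of every class and was tested in the sum of all nuclei, with 7 and 18 UMIs in Setdb1-CK-cKO and 10 and 20 in Wildtype (log2 fold change -0.08, 95% interval -1.36 to 1.19). It also entered the comparison of the effect in excitatory neurons minus that in inhibitory neurons, at -0.26 ± 1.23 (SE; adjusted p = 0.981, edgeR). Trim28 had 13.2 and 13.6 CPM in Setdb1-CK-cKO and 14.1 and 15.03 CPM in Wildtype excitatory neurons. Both Setdb1-CK-cKO libraries were slightly below both Wildtype libraries, but the log2 fold change of -0.12 ± 0.116 (SE) did not pass (adjusted p = 0.601, edgeR; 95% interval -0.38 to 0.14). It was tested in 6 classes, positive in 4, with log2 fold changes of -0.23 to 0.39. In the classes below the count filter both Setdb1-CK-cKO libraries lay below both Wildtype libraries. Striatal projection neurons had 6.95 and 12.7 CPM in Setdb1-CK-cKO (6 UMIs) and 25.4 and 40.7 CPM in Wildtype (15 UMIs), lower value first. Vascular and meningeal cells had 7.72 and 21.8 CPM in Setdb1-CK-cKO (7 UMIs) and 28.3 and 28.9 CPM in Wildtype (15 UMIs).

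Setdb2 was the member whose log2 fold change was negative wherever it was tested, in 3 of 8 classes, without passing. It had 5.03 and 4.56 CPM in Setdb1-CK-cKO and 6.55 and 6.08 CPM in Wildtype excitatory neurons, and 4.07 and 4.28 CPM in Setdb1-CK-cKO and 7.70 and 7.93 CPM in Wildtype inhibitory neurons. In both classes both Setdb1-CK-cKO libraries lay below both Wildtype libraries, as for 25.8% of all genes tested in excitatory and 22.1% in inhibitory neurons. The log2 fold changes were -0.40 ± 0.152 (SE; 95% interval -0.74 to -0.05, adjusted p = 0.184) in excitatory and -0.90 ± 0.320 (-1.57 to -0.23, adjusted p = 0.182) in inhibitory neurons (edgeR). In oligodendrocytes, with 11 and 13 UMIs in Setdb1-CK-cKO and 22 and 19 in Wildtype, it was -0.23. In oligodendrocyte precursors, not tested, the mean was higher in Setdb1-CK-cKO (8.47 CPM, 9 UMIs) than in Wildtype (6.04 CPM, 7 UMIs). The mean was lower in Setdb1-CK-cKO in the other classes not tested. Among subclasses 9 could be tested and all 9 were negative, from -1.29 in L4/5 IT (5 and 5 UMIs in Setdb1-CK-cKO, 17 and 16 in Wildtype) to -0.03 in the corticothalamic neurons of layer 6, and none passed. The subclasses divide the class sums and are no independent evidence.

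Suv39h1, on the X chromosome, was higher in the Setdb1-CK-cKO libraries of both neuron classes but did not pass. It had 6.46 and 7.17 CPM in Setdb1-CK-cKO and 4.50 and 6.32 CPM in Wildtype excitatory neurons, and 10.0 and 11.3 CPM in Setdb1-CK-cKO and 6.73 and 6.76 CPM in Wildtype inhibitory neurons. The genotypes did not overlap in either, and the log2 fold changes were 0.33 (95% interval -0.09 to 0.76, adjusted p = 0.350) and 0.66 (0.11 to 1.22, adjusted p = 0.257, edgeR). In oligodendrocytes it was -0.18, with overlapping libraries. Suv39h2 had 3.87 and 4.17 CPM in Setdb1-CK-cKO and 3.46 and 3.56 CPM in Wildtype excitatory neurons (log2 fold change 0.20, adjusted p = 0.556) and 2.71 and 3.02 CPM in Setdb1-CK-cKO and 3.37 and 3.73 CPM in Wildtype inhibitory neurons (-0.30, adjusted p = 0.806). The genotypes were apart in both classes, in opposite directions, and the other 6 classes had too few UMIs for a test. Among subclasses Suv39h1 was positive in 7 of 9 tested, from -0.29 to 0.99, and Suv39h2 in 4 of 5, from -0.10 to 1.12. None of these passed, and the subclasses divide the class sums.

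The G9a and GLP genes showed no difference that passed. Ehmt1, which encodes GLP, had 124.9 and 122.6 CPM in Setdb1-CK-cKO and 126.8 and 122.5 CPM in Wildtype excitatory neurons, a log2 fold change of -0.01 with a 95% interval of -0.18 to 0.16. In inhibitory neurons Ehmt1 had 144.6 and 145.1 CPM in Setdb1-CK-cKO and 144.3 and 149.3 CPM in Wildtype (-0.02, 95% interval -0.22 to 0.18). Ehmt2, which encodes G9a, had 37.4 and 32.8 CPM in Setdb1-CK-cKO and 35.5 and 35.1 CPM in Wildtype excitatory neurons (-0.01, -0.25 to 0.24). The genotypes overlapped in all 3 of these. Over the 8 classes Ehmt1 ranged from -0.17 to 0.40 and Ehmt2 from -0.61 to 0.35, and none passed.

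Of the HUSH subunits, Tasor had 62.6 and 53.6 CPM in Setdb1-CK-cKO and 56.4 and 50.9 CPM in Wildtype excitatory neurons, with overlapping genotypes and a log2 fold change of 0.12 (95% interval -0.13 to 0.36, adjusted p = 0.587, edgeR). Its highest log2 fold change was in striatal projection neurons, with 86.9 and 66.5 CPM in Setdb1-CK-cKO and 38.1 and 27.1 CPM in Wildtype, from 25 and 21 UMIs in Setdb1-CK-cKO and 9 and 6 in Wildtype. The genotypes did not overlap there, but the value of 1.21 ± 0.412 (SE) did not pass (adjusted p = 0.518). In L4/5 IT neurons Tasor had 72.6 and 72.8 CPM in Setdb1-CK-cKO and 55.9 and 54.8 CPM in Wildtype. There the libraries of each genotype were nearly equal, but the log2 fold change of 0.39 ± 0.134 (SE) did not pass (adjusted p = 0.187). Mphosph8 had 65.6 and 61.0 CPM in Setdb1-CK-cKO and 58.7 and 58.1 CPM in Wildtype excitatory neurons (0.12, 95% interval -0.08 to 0.31, adjusted p = 0.488), and in inhibitory neurons 56.7 and 67.9 CPM in Setdb1-CK-cKO and 63.3 and 63.9 CPM in Wildtype (-0.03). The genotypes did not overlap in excitatory neurons and overlapped in inhibitory neurons.

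**Figure D3:**
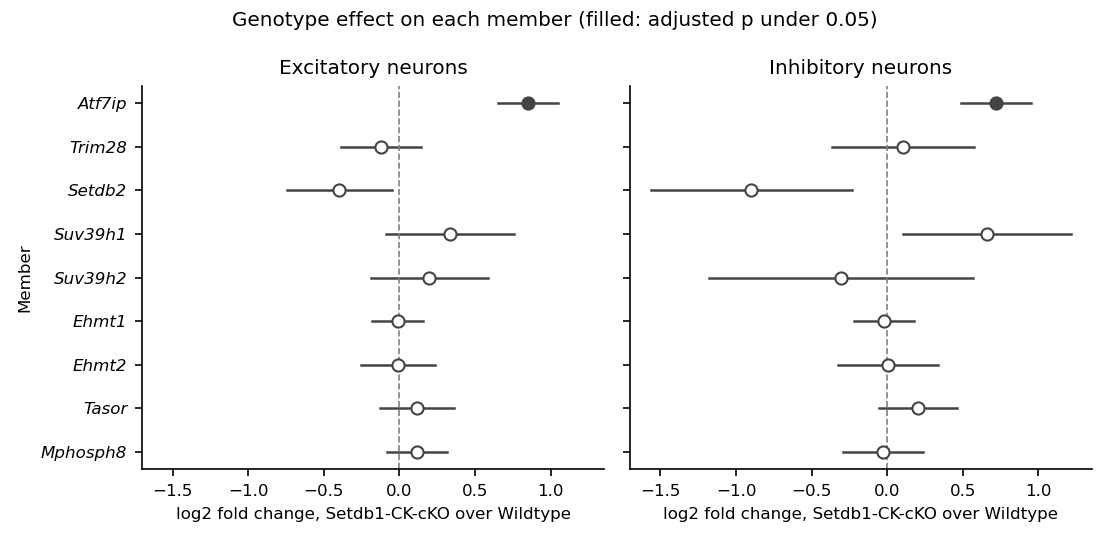
Log2 fold change of Setdb1-CK-cKO over Wildtype with its 95% interval for each member tested in excitatory and inhibitory neurons, filled where the adjusted p was under 0.05. Atf7ip, at 0.85 and 0.72, is the one filled point in each panel, and the intervals of Ehmt1 and Ehmt2 straddle 0.

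Over the 9 members other than Atf7ip and the 8 classes, 47 of 72 pairs had enough UMIs for the test and 0 passed in edgeR. Of these, 4 had an unadjusted p under 0.05, and the smallest adjusted p was 0.182. Between 0 and 4.44% of all genes passed in these classes. Over 15 subclasses 96 of 135 pairs were tested and 0 passed, with 6 at an unadjusted p under 0.05. There 0.462 to 3.03% of all genes passed. At such shares a set of so few pairs may hold no call, whatever the genes. DESeq2 also called none of them in any class or subclass. In excitatory neurons both Setdb1-CK-cKO libraries lay above both Wildtype libraries for 4 of the 9 members tested there, Atf7ip among them (26.5% of all genes tested), and below for 2 (25.8%). The median log2 fold change of those 9, Atf7ip included, was 0.12, beside 0.0042 over all genes tested.

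**Figure D4:**
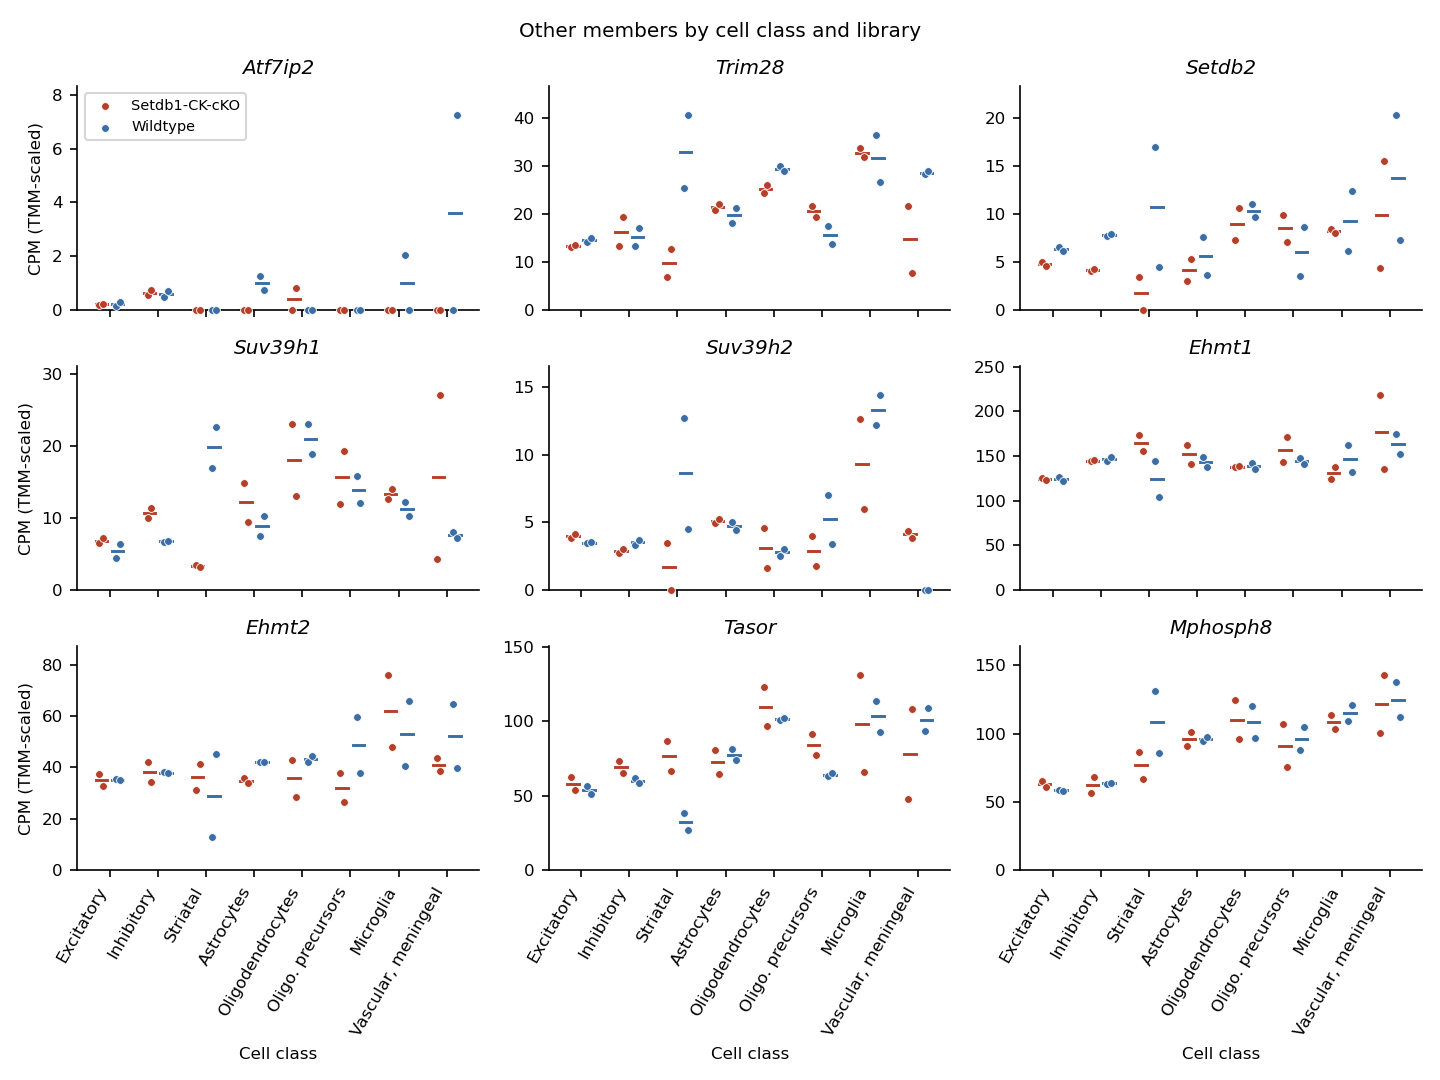
Level in CPM (vertical axis, a scale for each gene) of the 9 members other than Atf7ip by cell class, with 1 point per library, Setdb1-CK-cKO left of Wildtype, and a bar at the mean of the 2 libraries. Setdb2 sits lower in both Setdb1-CK-cKO libraries of inhibitory neurons, at 4.07 and 4.28 CPM against 7.70 and 7.93 in Wildtype, and most other pairs of genotypes overlap or lie close together.

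The members also differed in level between cell classes, given here as a description without a test because classes come from clustering. In Wildtype libraries Atf7ip was highest in vascular and meningeal cells (130 ± 35.6 CPM, SD, n = 2), oligodendrocytes (128 ± 6.86), oligodendrocyte precursors (126 ± 10.6) and microglia (125 ± 1.14), whose libraries overlapped along that order. Astrocytes followed at 102 ± 2.85 CPM, below all of these and above the neurons. Inhibitory neurons (70.7 ± 8.51), excitatory neurons (68.2 ± 5.86) and striatal projection neurons (60.7 ± 21.99) were lowest and overlapped. In Setdb1-CK-cKO the order was astrocytes (173 ± 14.7), microglia (172 ± 25.02), oligodendrocytes (170 ± 11.9), oligodendrocyte precursors (153 ± 42.4), striatal projection neurons (152 ± 18.2), vascular and meningeal cells (141 ± 14.01), excitatory neurons (123 ± 3.16) and inhibitory neurons (117 ± 10.2). Only vascular and meningeal cells were clear of the next class in that order, and the levels of its excitatory and inhibitory neurons lay within the Wildtype range of the non-neuronal classes (102 to 130 CPM).

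In Wildtype, Mphosph8, Tasor, Trim28 and Suv39h1 also had lower means in excitatory and inhibitory neurons than in each other class, except that Tasor was lower still in striatal projection neurons. Mphosph8 was at 58.4 CPM in excitatory and 63.6 in inhibitory neurons and at 95.8 to 125 in the other 6 classes, striatal projection neurons among them at 109 from 50 UMIs. Tasor was at 53.7 in excitatory and 60.1 in inhibitory neurons and at 101 to 103 in microglia, oligodendrocytes and vascular cells, with striatal projection neurons at 32.6 from 15 UMIs. Trim28 was at 14.6 CPM in excitatory neurons, 15.2 in inhibitory neurons and 15.6 in oligodendrocyte precursors, which overlapped, and at 29.5 in oligodendrocytes, 31.6 in microglia and 33.05 in striatal projection neurons, the last from 15 UMIs. Suv39h1 was at 5.41 CPM in excitatory and 6.75 in inhibitory neurons, 20.9 in oligodendrocytes and 19.8 in striatal projection neurons, the last from 9 UMIs. Ehmt1 varied least, between 124 and 163 CPM over the 8 classes. Ehmt2 ran from 29.0 CPM in striatal projection neurons and 35.3 in excitatory neurons to 53.2 in microglia, and Setdb2 from 5.62 in astrocytes to 13.7 in vascular and meningeal cells. Suv39h2 was highest in microglia at 13.3 CPM, from 13 UMIs. Setdb1 itself was highest in microglia at 97.1 CPM and lowest in astrocytes at 37.9. Levels are not compared between genes, because tags per transcript are not scaled by length.

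The genes whose pattern over the 32 sums of 8 classes in 4 libraries was most like that of Atf7ip were Prmt2, an arginine methyltransferase gene (Pearson r = 0.80 of log2(CPM + 1)), Gm46440 (0.79) and Zfp110, a zinc finger gene (0.76). For Tasor they were Rfc2 (0.84), Mtln (0.80) and Zkscan14 (0.79), for Mphosph8 Stxbp3 (0.71), Psat1 (0.70) and Pfn2 (0.70), and for Ehmt1 Papss2 (0.83), Tcp11l1 (0.81) and Gm4924 (0.80). For Trim28 they included Pes1 (0.76) and Dnajc9 (0.76), and for Ehmt2 they were Tmem151b (0.76), Taok1 (0.75) and Kcnab3 (0.74). No member was among the 3 genes most like another. The sums share libraries and depth, so these values are a description.

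Of 53 other genes of the pathway, set out in 7 lists, all were tested in excitatory neurons, where 0 rose and 1 fell, beside the 4.44% of all genes called there. Their median log2 fold change was -0.07, with 19 of 53 positive, beside 0.0042 and 50.8% over all genes tested. The gene that fell was Tet1, which oxidises methylated cytosine, with 19.1 and 20.4 CPM in Setdb1-CK-cKO and 29.3 and 26.0 CPM in Wildtype. The genotypes did not overlap, and the log2 fold change was -0.48 ± 0.111 (SE; adjusted p = 0.0463, edgeR). The call was lost without Setdb1-CK-cKO replicate 1 (-0.44, adjusted p = 0.0558), without Wildtype replicate 1 (-0.40, adjusted p = 0.392) and without Wildtype replicate 2 (-0.57, adjusted p = 0.0616). In the same list of 9 genes of DNA methylation the chromatin remodeller Hells was at -0.40 (adjusted p = 0.205), and 8 of 9 log2 fold changes were negative.

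In astrocytes 45 of the 53 were tested, and Sumo2, which encodes a protein modifier that SETDB1 binds, rose, with 132.0 and 114.0 CPM in Setdb1-CK-cKO and 77.3 and 75.2 CPM in Wildtype. The genotypes were far apart, at a log2 fold change of 0.69 ± 0.170 (SE; adjusted p = 0.0465, edgeR; 1.47% of genes called). That call was lost whichever library was left out (0.58 without Setdb1-CK-cKO replicate 1, 0.77 without Setdb1-CK-cKO replicate 2, 0.69 without Wildtype replicate 1 and 0.67 without Wildtype replicate 2, with adjusted p between 0.0963 and 0.219). In excitatory neurons Sumo2 had 69.1 and 72.3 CPM in Setdb1-CK-cKO and 61.5 and 60.2 CPM in Wildtype (0.22, adjusted p = 0.181). None of the 50 tested in inhibitory neurons passed, with 3 at an unadjusted p under 0.05 (edgeR), and none passed in the other 5 classes.

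By role, the 7 genes of SETDB1 and its cofactors had a median of -0.02 in excitatory neurons, with Sumo3 at 0.24 (adjusted p = 0.342). The 3 HUSH partners and effectors had a median of 0.04, with the ATPase gene Morc2a at 38.1 and 31.8 CPM in Setdb1-CK-cKO and 31.7 and 27.2 CPM in Wildtype (0.25, adjusted p = 0.319) and the scaffold partner Pphln1 at -0.05 (adjusted p = 0.855). The 5 partners of G9a and GLP had a median of -0.07, with Zfp644 at 0.14 (adjusted p = 0.305) and Cdyl2 at -0.20 (adjusted p = 0.341). In the list of 13 genes for HP1 and reading of the mark, not all of them direct readers, the median was 0.02. Atrx was at -0.19 (adjusted p = 0.215) and Adnp at -0.21 (adjusted p = 0.262). Among 13 demethylases, with a median of -0.09 and 3 of 13 positive, Kdm4d was at -0.22 (adjusted p = 0.394) and Kdm4c at -0.09 (adjusted p = 0.543). The 3 further methyltransferases had a median of 0.10, with Prdm2 at -0.06 (adjusted p = 0.762) and Mecom at 0.19 (adjusted p = 0.790). None of these named genes passed.

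Where the annotation places another gene over a member, on its own strand or the opposite one, reads of the pair may not be told apart, since whether counting used strand and introns is not given in the sources used here. Such pairs are Atf7ip with Gm44140, Trim28 with Zbtb45, Suv39h1 with Gm14820, and Suv39h2 with Dclre1c and Gm13184. Further pairs are Tasor with Ccdc66, Mphosph8 with Gm16973, and Atf7ip2 with Gm49455. In all of these pairs the other gene lies on the opposite strand, so a count that used strand would keep them apart. Atf7ip2 also overlaps Gm24667 and Gm49456, Setdb2 overlaps Gm16301 and Ehmt1 overlaps Gm38147 and Gm37139, none of which is among the genes counted, and Ehmt2 overlaps no annotated gene. Tasor is listed there under its older symbol Fam208a, and was matched by gene ID.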

How the data were processed

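Nuclei of mouse cortex were profiled with 10x 3′ libraries, per the labels' protocols. Per the submitters' processing notes, which name Cell Ranger 7.1.0 and mm10, the authors deposited unnormalized UMI counts of each gene in each barcode. Barcodes were required to hold 500 UMIs, 300 genes and no more than 5% mitochondrial UMIs, and doublets found with scrublet in scanpy 1.11.5 (expected rate 10%) were removed. Leiden clusters (resolution 1.0, 30 components, seed 1) came from 2000 variable genes chosen without the members, Setdb1, Xist, Tsix and mitochondrial and Y-linked genes, and 26 of 39 clusters and sub-clusters were named from markers. The striatal class and all other names were rebuilt here and are not the authors'. Counts were summed per library and class with at least 30 nuclei in every library, filtered with filterByExpr (minimum count 10), scaled by TMM and tested with edgeR 4.0.16 (genotype only) under R 4.3.3, with Benjamini-Hochberg adjustment over all genes of a class and a threshold of 0.05. CPM are per 1000000 TMM-scaled UMIs. Alternatives were RLE scaling, DESeq2 1.42.0, no low-count filter, a replicate block, doublets kept, nuclei of at least 1000 UMIs and each library left out. The fits were tested on simulated data.

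The animals are the replicates, 2 per genotype, so p-values rest on 4 libraries. For each gene edgeR estimates the spread partly from the other genes tested. The p-values thus do not measure that gene's spread between animals alone. Members and lists were chosen with earlier results of these data known. All members were named, and of the listed genes those called and the 2 of smallest p in excitatory neurons per list, the 3 genes nearest Atf7ip on each side by start, and the 3 of highest correlation with Atf7ip and with each member of at least 20 CPM on average; 1 gene that this rule names and 1 marker are not reported here. Gene positions are from GENCODE vM21 (32158 of 32285 identifiers found) and promoters from RefSeq (GRCm38.p6), matched by symbol for all 10 members. The authors' annotation release is not given in the sources used here.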

Additional observations from a re-analysis of the deposited data

Results flagged for a closer look

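The effect of genotype on Atf7ip differed between 2 classes of the same libraries: the log2 fold change of Setdb1-CK-cKO over Wildtype in excitatory neurons minus that in oligodendrocytes was 0.48 (adjusted p = 0.0138, edgeR's interaction term). It was positive without each library in turn, at 0.33 to 0.62, and passed in 1 of those 4 fits, the one without Wildtype replicate 2.

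Atf7ip was also counted in nuclei that no class took. In unnamed nuclei it had 136 and 152 CPM in Setdb1-CK-cKO and 73.1 and 78.4 CPM in Wildtype, and in unnamed nuclei with inhibitory markers 156 and 141 CPM in Setdb1-CK-cKO and 68.1 and 55.3 CPM in Wildtype. Both Setdb1-CK-cKO libraries lay above both Wildtype libraries in each set. These sets held 483 and 830 nuclei in Setdb1-CK-cKO and 1320 and 577 in Wildtype, and 731 and 276 in Setdb1-CK-cKO and 363 and 151 in Wildtype, and their differences were not tested.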

How the results depend on the processing

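Atf7ip kept its direction and its call in excitatory neurons and in inhibitory neurons under all 10 alternatives. Members called per class numbered 3, and 5 with the replicate block, which added Atf7ip in oligodendrocytes (0.40, adjusted p = 0.0277) and striatal projection neurons (1.31, adjusted p = 0.0350); leaving out 1 library gave 2 to 4. In astrocytes the log2 fold change was 0.76 in DESeq2 (adjusted p = 0.108) and 0.66 to 0.85 with 1 library left out. Members called per subclass numbered 12, and 7 in DESeq2, 7 to 12 with 1 library left out and 12 with the replicate block, where L6b lost its call (adjusted p = 0.0903). Of the 12 Atf7ip calls, 6 held under all 8 alternatives run for subclasses (L2/3 IT, L5 IT, L6 CT, L6 IT, claustrum or L6 Car3, Lamp5 or Sncg). The only other members called under any alternative were Tasor in L4/5 IT with the replicate block (0.39, adjusted p = 0.0406) and Trim28 in L5 ET without Setdb1-CK-cKO replicate 2 (-1.66, adjusted p = 0.0491). The difference of excitatory neurons minus oligodendrocytes was 0.42 in nuclei of at least 1000 UMIs and 0.33 to 0.62 with 1 library left out, and members called in such comparisons numbered 1, and 0 at 1000 UMIs and 0 to 1 with 1 library left out. Other genes of the pathway called numbered 2, and 9 with the replicate block. RLE scaling, DESeq2, no filter and 1000 UMIs each gave 1, and the number also moved with 1 library left out. The block raised the share of all genes called from 4.44% to 19.4% in excitatory neurons and from 1.8% to 7.39% in inhibitory neurons. That share went from 1.47% to 4% in astrocytes, 0.93% to 5.31% in oligodendrocytes and 0% to 0.856% in striatal projection neurons. The members and pathway genes called with the block stand beside those shares. Sumo2 in astrocytes lost its call under RLE scaling (adjusted p = 0.0553), in DESeq2 (0.345) and at 1000 UMIs (0.0753), and Tet1 with no filter (0.160). No gene flanking Atf7ip was called under any alternative. Signs turned for values that never passed: with 1 library left out Atf7ip was at -0.039 to 0.53 in oligodendrocyte precursors, -0.15 to 0.42 in vascular and meningeal cells and -0.11 to 0.70 in cluster 21. In excitatory neurons Ehmt1 was then at -0.041 to 0.0098, Ehmt2 at -0.11 to 0.077 and Tasor at -0.0038 to 0.22. In inhibitory neurons Trim28 was at -0.20 to 0.34 (-0.057 without Wildtype replicate 1), Ehmt1 at -0.046 to 0.0018, Ehmt2 at -0.16 to 0.15 (-0.0054 without Wildtype replicate 2) and Mphosph8 at -0.17 to 0.090. With doublets kept, Ehmt2 in inhibitory neurons was at -0.031. Same-numbered libraries deviated together (correlation 0.46 in excitatory, 0.26 in inhibitory neurons), but 2 pairs with no stated link do not pair the animals, and the block also follows the sex-linked RNA. DESeq2 gave no adjusted p for Atf7ip in oligodendrocytes. The cause of these shifts was not tested. Depth limits the low members: Atf7ip2, Suv39h2, Setdb2 and Suv39h1 could be tested in 0, 2, 3 and 4 of 8 classes.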
